A study of Mus musculus with 16 samples.

Results

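The genes described here are 7 markers of formative and primed pluripotency, Otx2, Fgf5, Pou3f1, Foxd3, Zic2, Cdh2 and Grhl2, out of 22367 annotated protein-coding genes. They were followed in lists of chromatin regions from female and male mouse embryonic stem (ES) cells, and a region was assigned to a member if it overlapped the gene body or came within 50 kb of the transcription start site (TSS). The TSS was the 5′ end of the gene model. By this rule the members held 101 regions in the female lists and 94 in the male lists. For H3K27Ac these were 32 of 28784 female and 34 of 26100 male regions, for H3K4Me1 40 of 39404 and 33 of 34800, and for H3K27Me3 29 of 18534 and 27 of 15138. Of the members' regions, 71 female and 67 male ones lay over the member's own body or nearer to its TSS than to that of any other protein-coding gene.

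The ES cells were female (XX) and male (XY) lines from F1 hybrids of C57BL/6 and CAST/EiJ mice, untreated and at low passage, with 2 lines of each sex for each mark. Both sexes were grown in serum and LIF on inactivated fibroblasts of C57BL/6 embryos of both sexes, depleted from the cultures, down to a small measured remainder, before the chromatin was taken. Chromatin immunoprecipitation and sequencing (ChIP-seq) gave 16 libraries, 12 for the 3 histone marks and 4 for IgG or input, and the study asked how far chromatin differs between the sexes before differentiation. The deposited files hold 1 list of regions for each sex and mark, with no line named and no statement of how the 2 lines were combined, so no value below has a replicate, a standard deviation or a test.

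Pluripotent cells pass from a naive state, in which ES cells are held by LIF, through a formative state to the primed state of the epiblast after implantation. Otx2 is a homeodomain factor that drives the exit from the naive state and redirects Oct4 to new enhancers, and Pou3f1 (Oct6) is a POU factor induced with it. Foxd3 is a forkhead factor that acts at enhancers during this transition and later in the neural crest, Zic2 is a zinc finger factor of the epiblast and the neural tube, and Grhl2 is a grainyhead-like factor that keeps epithelial enhancers open. Fgf5 encodes the growth factor most often used to mark the epiblast and has a cluster of enhancers downstream of it, and Cdh2 encodes N-cadherin, the adhesion protein of the switch away from E-cadherin. Acetylation of H3K27 is found at promoters and enhancers in use, H3K4Me1 at active and primed enhancers alike, and H3K27Me3 is deposited by Polycomb repressive complex 2. The same lysine cannot be acetylated and trimethylated at once. Where H3K27Ac and H3K27Me3 regions overlapped in a list, origins in the same cells, in different alleles and in different cells cannot be told apart.

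The lists hold coordinates in mm9, all on a grid of 200 bp, with no count or signal, so the depth behind a region is unknown and a region missing from a list may have been below the threshold. For each mark the female list held more regions, with medians of region width between 3.60 and 5.0 kb in the 3 female lists and between 3.80 and 5.60 kb in the 3 male lists. Of 12 ES cell markers, 11 carried H3K27Ac within 2 kb of the TSS in the female list and 11 in the male list, the exception in each being Esrrb. The H3K27Ac region nearest to the Esrrb TSS lay 33.1 kb away in the female list and 32.9 kb away in the male list. Of 15 fibroblast markers, 2 carried it in the female list (Lum and Fbln1) and 4 in the male list (these and Col1a1 and Twist1). All 3 marks were missing at the start of 3 of the 15 in the female list (Col1a2, Col3a1 and Dcn) and of 3 in the male list (Col1a2, Col3a1 and Col6a1).

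At their gene starts the members carried the enhancer and the Polycomb mark without exception, and most carried acetylation as well. H3K4Me1 lay within 2 kb of the TSS of 7 of 7 members in the female list and in the male list, where 58.1% of protein-coding genes had it in the female list and 57.0% in the male list. H3K27Me3 lay there at 7 of 7 members in each list, against 30.8% of protein-coding genes in the female list and 26.9% in the male list. H3K27Ac lay there at 5 members in the female list, with a background of 48.2%, and at 6 in the male list, with a background of 48.3%. The 5 were Otx2, Fgf5, Foxd3, Zic2 and Grhl2, and the male list added Cdh2. Pou3f1 had no acetylated region at its start in either list. The same 5 and 6 members therefore had H3K27Ac and H3K27Me3 together, a pair found at 12.5% of protein-coding genes in the female list and 10.7% in the male list. They also had all 3 marks, found at 11.5% of genes in the female list and 9.80% in the male list. Widening the distance from 2 kb to 5 kb added Pou3f1 in the male list and no other call.

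The bases before 4 of these gene starts are shown because their CpG contents differed widely, while H3K27Me3 lay at each start. In the 250 bases before the TSS, the members held 6 to 35 CpG dinucleotides, against a median of 8 over the promoters of all 22367 genes. Pou3f1 had 33, Zic2 31, Fgf5 24, Foxd3 21 and Grhl2 14, and 4.49% of all promoters had as many as Pou3f1. Otx2 had 6, and 59.5% of all promoters had at least that number, although its start carried all 3 marks in both lists. CpG was not counted in the rest of the sequence under H3K27Me3 or at the further annotated starts of Otx2. The sequences were read from the mm9 assembly and run 5′ to 3′ on the strand of the gene, with each CG in capitals. They are Otx2 at chr14:49287320-49287569 (minus strand), Fgf5 at chr5:98682953-98683202, Pou3f1 at chr4:124334646-124334895 and Zic2 at chr14:122874354-122874603 (plus strand).
Otx2 promoter: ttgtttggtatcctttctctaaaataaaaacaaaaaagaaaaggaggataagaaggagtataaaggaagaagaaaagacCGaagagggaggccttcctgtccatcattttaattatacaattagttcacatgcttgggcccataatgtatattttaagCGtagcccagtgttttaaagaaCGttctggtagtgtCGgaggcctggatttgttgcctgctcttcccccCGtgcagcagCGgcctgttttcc
Fgf5 promoter: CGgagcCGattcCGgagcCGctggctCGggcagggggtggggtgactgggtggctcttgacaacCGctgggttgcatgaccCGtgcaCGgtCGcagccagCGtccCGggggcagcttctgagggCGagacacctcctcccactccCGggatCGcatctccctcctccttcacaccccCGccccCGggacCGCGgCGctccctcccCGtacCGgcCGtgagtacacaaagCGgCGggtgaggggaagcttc
Pou3f1 promoter: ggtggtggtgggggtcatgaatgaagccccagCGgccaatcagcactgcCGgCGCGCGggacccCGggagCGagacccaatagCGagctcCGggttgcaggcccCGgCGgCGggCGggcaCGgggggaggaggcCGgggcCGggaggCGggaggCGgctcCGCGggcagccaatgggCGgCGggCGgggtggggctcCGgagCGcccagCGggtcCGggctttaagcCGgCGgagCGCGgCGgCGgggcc
Zic2 promoter: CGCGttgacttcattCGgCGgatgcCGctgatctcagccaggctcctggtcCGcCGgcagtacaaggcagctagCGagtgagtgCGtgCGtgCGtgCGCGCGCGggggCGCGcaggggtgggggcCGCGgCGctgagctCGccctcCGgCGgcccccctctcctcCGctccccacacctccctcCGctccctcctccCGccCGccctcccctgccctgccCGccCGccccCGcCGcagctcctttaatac

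In the sequences above, CG follows CG closely along Pou3f1, Zic2 and Fgf5, while the Otx2 stretch is rich in A and T. None of the 7 promoter stretches held any of 6 short motifs on either strand, which were TAATCC (Otx2 family), ATGCAAAT (octamer of POU factors), AACCGGTT (Grhl family), CAGCAGG (Zic), TGTTTAC (forkhead) and CATTGTT (Sox). Over all promoters of this length the most frequent of these was the Zic motif, with 8.03%, and the rarest the Grhl motif, with 0.134%.

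**Figure D1:**
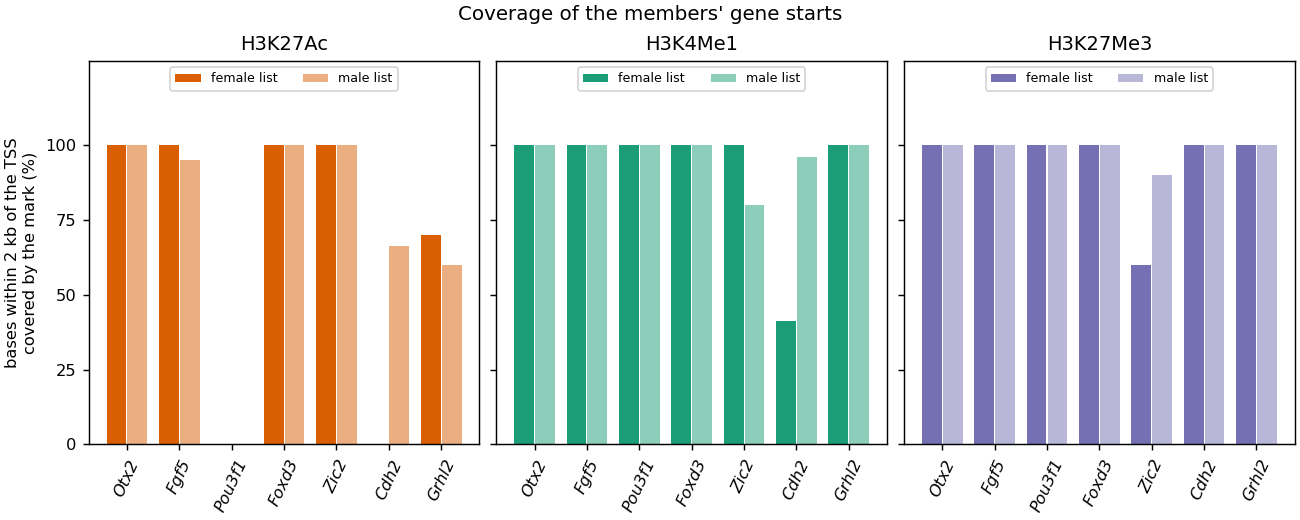
Percent of the bases within 2 kb of each TSS that were covered by H3K27Ac, H3K4Me1 or H3K27Me3 regions, with the female list at left (dark) and the male list at right (light) for each gene. H3K27Ac was at 0 in both lists at Pou3f1 and in the female list at Cdh2, and H3K27Me3 covered 100% at every member except Zic2, with 60.0% in the female list and 90.0% in the male list.

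The Polycomb regions over the gene starts were also wide. An H3K27Me3 region covered the TSS itself of 6 members in the female list, with a median of 13.0 kb (9.0 to 23.6 kb), and of 7 in the male list, with a median of 14.0 kb (9.60 to 20.6 kb). All of them were wider than the median of H3K27Me3 regions over the TSS of any protein-coding gene, which was 8.20 kb over 4584 female regions and 7.80 kb over 3877 male regions. The widest in the female list lay over Pou3f1, and the widest in the male list over Zic2. H3K27Ac regions over the TSS had a median of 7.80 kb at 5 members in the female list and 7.0 kb at 6 members in the male list, against 3.80 and 4.0 kb over all such regions of the same lists. H3K4Me1 regions over the TSS were spread most, at 6.0 to 32.2 kb in the female list and 4.40 to 40.2 kb in the male list.

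Otx2 (ENSMUSG00000021848.9, chr14:49277354-49287319, minus strand, 9.97 kb with 7 annotated starts) had 2 blocks in which all 3 marks lay over each other. The block over the gene held H3K27Ac from -2.28 to 8.52 kb and from 9.52 to 17.3 kb in the female list, against -2.48 to 7.12 kb and 8.72 to 17.3 kb in the male list (kb from the TSS, negative upstream). Over it lay H3K27Me3 from -9.28 to 3.92 kb in the female list and from -9.28 to 4.72 kb in the male list, with the same upstream edge. The female H3K27Me3 went on in pieces of 6.60, 6.0 and 1.40 kb, the last without a partner in the male list, and the male H3K27Me3 in 1 region of 11.4 kb. All 6 further annotated starts, 0.131 to 5.71 kb into the gene, lay under H3K4Me1 of both lists.

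The upstream block of Otx2 held no annotated protein-coding gene. A single H3K4Me1 region spanned it, 33.0 kb wide in the female list (-57.7 to -24.7 kb) and 36.0 kb wide in the male list (-57.5 to -21.5 kb), wider than 98.3% and 98.5% of the regions in the same lists. Under it the female list had 2 H3K27Ac regions of 11 and 19.4 kb, and the male list 3 of 8.0, 7.40 and 11 kb. H3K27Me3 lay under it in 4 female regions of 2.0 to 7.0 kb and in 3 male regions of 5.20 to 11.8 kb. Another female H3K27Me3 region, at -51.7 to -50.1 kb, ended just outside the 50 kb limit and was not counted among the regions of Otx2. Its bases also lay under the H3K4Me1 region and enter the share that follows. In all, 43.6% of the H3K4Me1 bases of Otx2 lay under both other marks in the female list and 51.7% in the male list.

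Pou3f1 (ENSMUSG00000078236.3, chr4:124334896-124337899, plus strand, 3.0 kb) had a start with H3K27Me3 and H3K4Me1 and acetylation at a distance. H3K27Me3 ran from -7.70 to 15.9 kb in the female list as 1 region of 23.6 kb, and in the male list as regions of 17.6 kb (-7.29 to 10.3 kb) and 4.80 kb (11.1 to 15.9 kb) with the same downstream edge. The nearest H3K27Ac region ended 9.70 kb upstream of the TSS in the female list (3.20 kb wide) and 4.90 kb upstream in the male list (8.40 kb wide), starting at -12.9 and -13.3 kb. A downstream one lay at 14.1 to 18.1 kb in the female list and at 12.7 to 17.7 kb in the male list. H3K4Me1 over the TSS was 6.0 kb wide in the female list and 20.2 kb wide in the male list, where 1 region (-15.3 to 4.90 kb) met 3 regions of the female list.

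Beyond 25 kb, regions of Pou3f1 lay among other genes. Utp11l and Fhl3 start 35.9 and 43.0 kb downstream of the Pou3f1 TSS, and 3100002H09Rik starts at -46.9 kb, upstream. In the female list an H3K4Me1 region of 8.80 kb lay over Utp11l (27.9 to 36.7 kb). It was followed by one of 24.8 kb over Fhl3 and the next gene, Sf3a3 (37.5 to 62.3 kb). In the male list 1 region of 34.4 kb lay over Utp11l, Fhl3 and Sf3a3 (25.9 to 60.3 kb). Upstream, at -28.7 to -25.3 kb, the female list had an H3K4Me1 region of 3.40 kb with H3K27Ac over 2.60 kb of it. The male list had H3K27Ac there (-27.9 to -24.3 kb) but no H3K4Me1 region, and an H3K27Me3 region of 4.0 kb at -25.3 to -21.3 kb without a partner in the female list.

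Foxd3 (ENSMUSG00000067261.3, chr4:99322990-99325362, plus strand, 1 exon of 2.37 kb) had the same acetylated region over the start in both lists and a wider Polycomb region in the male list. The H3K27Ac region ran from -3.99 to 2.01 kb in the female list and from -3.99 to 2.01 kb in the male list, identical at both edges. Acetylation upstream reached -25.4 kb in the female list in 1 region of 20.6 kb, and -25.2 kb in the male list in 2 regions of 15.4 and 3.80 kb. Downstream it covered 9.80 kb in the female list (10.4 to 20.2 kb) and 18 kb in the male list (2.81 to 20.8 kb). H3K27Me3 over the TSS was 12.8 kb wide in the female list (-7.79 to 5.01 kb) and 19.6 kb wide in the male list (-8.99 to 10.6 kb). The H3K27Me3 regions without a partner were short, with 1 of 0.399 kb at -10.6 kb in the female list, the narrowest width in that list, and 2 of 1.80 and 1.40 kb in the male list. H3K4Me1 ran over the gene in 1 region of 32.2 kb in the female list and 40.2 kb in the male list, and the male one was wider than 99.0% of its list.

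Zic2 (ENSMUSG00000061524.7, chr14:122874604-122879074, plus strand, 4.47 kb) has as its neighbour Zic5, another zinc finger gene of the family, which starts at -9.71 kb and is transcribed in the other direction. H3K27Ac over the TSS ran from -3.80 to 4.0 kb in the female list and from -4.0 to 4.0 kb in the male list. A gap in H3K27Me3 lay around the TSS. In the female list H3K27Me3 ended at -1.21 kb and began again at 0.397 kb, so the TSS was not covered, and in the male list it ended at -0.805 kb and began again at -0.403 kb, so the TSS was covered. H3K4Me1 was continuous over the TSS in the female list (-4.20 to 12.0 kb), while the male list had a gap from -0.405 to 0.397 kb. The lincRNA 2610035F20Rik starts at -1.80 kb on the opposite strand.

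Upstream of Zic2, acetylation at -26.0 to -20.0 kb in the female list and at -26.0 to -19.4 kb in the male list lay over the start of Gm5089 and wholly under H3K27Me3. H3K27Ac over the Zic5 start ran from -13.8 to -4.80 kb in the female list and from -13.8 to -5.0 kb in the male list. The regions farthest from Zic2 show how the 50 kb limit acts. A female H3K27Ac region of 13.2 kb ended at -49.6 kb and was counted, while its male partner of 13.0 kb ended at -50.2 kb and was not. The female H3K4Me1 region there, 41.8 kb wide at -87.4 to -45.6 kb, was wider than 99.2% of its list, and the male one was 33.8 kb wide at -65.8 to -32.0 kb.

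Fgf5 (ENSMUSG00000029337.1, chr5:98683203-98706049, plus strand, 22.8 kb and 3 exons) had all 3 marks at its start and acetylated stretches downstream. H3K27Ac over the TSS was 5.80 kb wide in the female list (-3.20 to 2.60 kb) and 4.40 kb wide in the male list (-1.80 to 2.60 kb), with the same downstream edge, and lay wholly under H3K27Me3 in both. That H3K27Me3 region was 10.6 kb wide in the female list (-6.40 to 4.20 kb) and 13.0 kb wide in the male list (-8.20 to 4.80 kb). No region of any list lay from there up to 50 kb upstream.

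Both distal H3K4Me1 stretches assigned to Fgf5 carried H3K27Ac in both lists. The nearer stretch, chr5:98711001-98716799 in the female list and chr5:98709601-98716799 in the male list, was 5.80 and 7.20 kb wide and shared its downstream edge at 33.6 kb. H3K27Ac covered 1.80 kb of it in the female list and 3.40 kb in the male list. The farther stretch, 4.20 kb wide in the female list (37 to 41.2 kb) and 5.60 kb in the male list (35.6 to 41.2 kb), had H3K27Ac over 4.20 kb in the female list and 4.80 kb in the male list. The centre of this farther stretch was nearer to the TSS of 1700007G11Rik than to that of Fgf5 in both lists. Within the stretch the male list had an H3K27Me3 region of 2.20 kb (36.6 to 38.8 kb) with no partner in the female list, whose nearest H3K27Me3 region lay 4.60 kb away. Just outside the limit, a stretch with H3K4Me1 and H3K27Ac began at 52.0 kb in the female list and at 50.6 kb in the male list, and its H3K27Ac region was 8.20 kb wide in the female list and 7.20 kb wide in the male list. Inside the gene body the lists differed in short H3K27Me3 regions, with 1 of 0.999 kb at 16.4 kb in the female list and 1 of 4.0 kb at 7.60 kb in the male list.

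**Figure D2:**
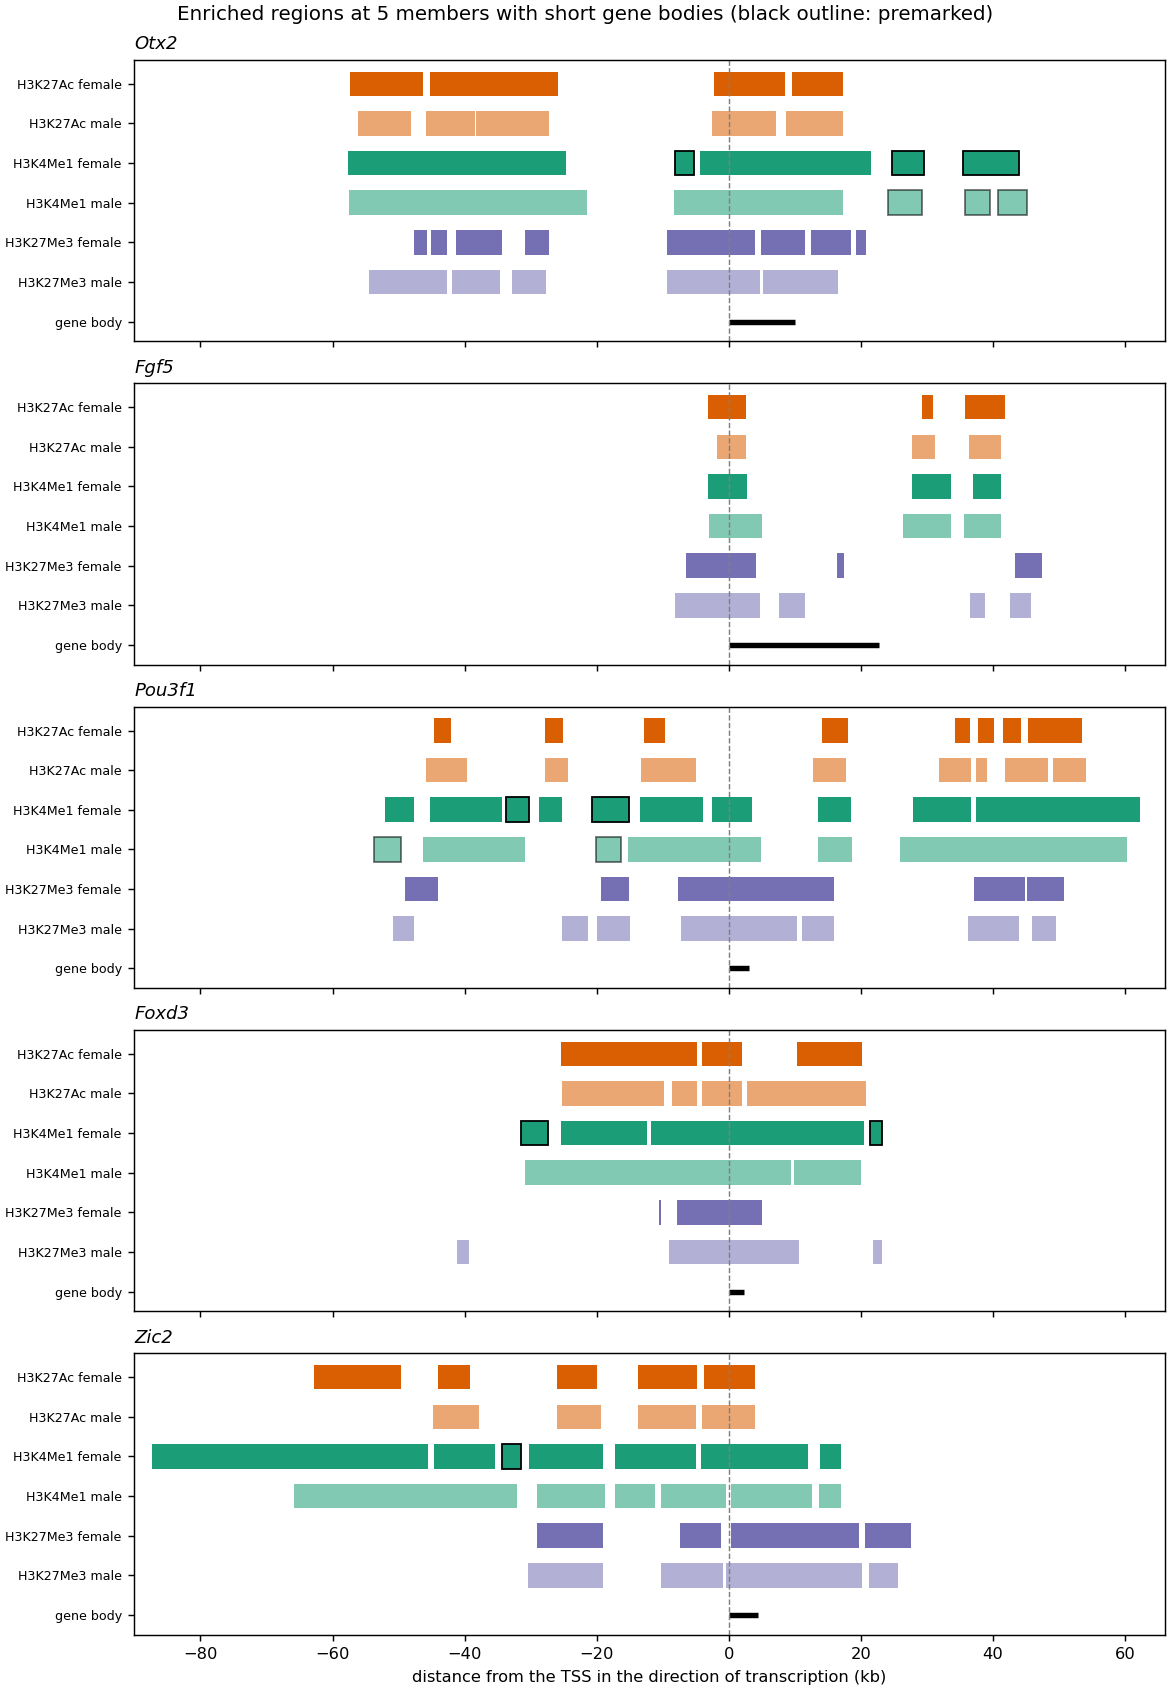
Regions of the female (dark) and male (light) lists by distance from the TSS in kb, in the direction of transcription, for 5 members, with the gene body as a black bar and premarked regions (H3K4Me1 over 2 kb from every protein-coding TSS and without H3K27Ac) outlined in black. All 3 marks lay over each other upstream of Otx2 in both lists, Pou3f1 had no H3K27Ac over its TSS, and both H3K4Me1 stretches downstream of Fgf5 held H3K27Ac.

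Grhl2 (ENSMUSG00000022286.9, chr15:37162791-37293324, plus strand, 131 kb) had 24 regions in the female lists, the most of any member, and 21 in the male lists, as many as Pou3f1. H3K27Ac over the TSS was 16.6 kb wide in the female list (-0.790 to 15.8 kb) and 16.8 kb wide in the male list (-0.390 to 16.4 kb). H3K27Me3 covered 15.2 kb of the female region and 11.2 kb of the male one. The H3K27Me3 region over the TSS was 21.2 kb wide in the female list (-10.2 to 11 kb), against 9.60 kb in the male list (-6.39 to 3.21 kb) followed by 7.60 kb more (4.01 to 11.6 kb). All 9 H3K27Ac regions of each list had a partner in the other, among them one of 11 kb in each list in the gene body at 51.8 kb in the female list and at 51.2 kb in the male list. A female H3K27Ac region of 7.60 kb at 109 to 116 kb, which overlapped exon sequence, met no H3K4Me1 region, and its male partner was 2.40 kb wide and met none either. The centres of both were nearer to the TSS of 4930447A16Rik than to that of Grhl2. Of 6 female H3K27Me3 regions, 3 had no partner in the male list, the widest being 4.0 kb.

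Cdh2 (ENSMUSG00000024304.8, chr18:16747386-16967755, minus strand, 220 kb with 20 exons over all models) had the fewest regions, 3 in the female lists and 4 in the male lists, although its body is the longest of the members. H3K27Me3 covered the start in both lists, 9.0 kb wide in the female list (-3.64 to 5.35 kb) and 9.60 kb wide in the male list (-4.64 to 4.95 kb). No H3K27Ac region was assigned to it in the female list, where the nearest lay 152 kb away. The male list had an H3K27Ac region of 3.60 kb over the TSS (-0.644 to 2.95 kb), wholly under H3K27Me3. Acetylation at the start in the male list alone was found at 2.75% of protein-coding genes. H3K4Me1 at the start was 2.20 kb wide in the female list and did not reach the TSS (0.356 to 2.55 kb), and was 4.40 kb wide in the male list (-1.84 to 2.55 kb). The male acetylated region was wider than 45.1% of its list and was lost when only the widest 50% of each list was kept, as was H3K4Me1 at the start in both lists.

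Cdh2 is also expressed in fibroblasts, so the fibroblast markers stand beside this difference. H3K4Me1 lay at the start of 6 of 15 in the female list and 9 of 15 in the male list. Twist1, Twist2, Dcn and Hoxc8 had it in the male list without having it in the female list, and Col6a1 the reverse. H3K27Ac lay at 2 of 15 in the female list and 4 of 15 in the male list, and 2 of them matched Cdh2 in having it in the male list over H3K27Me3 and not in the female list. Of these, Twist1, a mesenchymal transcription factor, had 1999 of the 4001 bases within 2 kb of its TSS under male H3K27Ac and H3K27Me3 in both lists. Col1a1, a fibroblast collagen gene, had 1262 of 4001 bases under male H3K27Ac, with H3K4Me1 and H3K27Me3 in both lists, while Col1a2 and Col3a1 had no mark in any list. Fbln1 and Lum had H3K27Ac in both lists and went the other way in extent. Fbln1 had 3379 bases under it in the female list and 2179 in the male list, and Lum had 1065 and 665. The part of fibroblast chromatin in the Cdh2 difference was not tested. The remaining feeder cells were few by the study's methods and of both sexes in each culture. In the gene body, the female list had an H3K4Me1 region of 2.40 kb at 137 to 139 kb, over an annotated internal start, and the male list one of 5.60 kb at 63.8 to 69.4 kb in an intron. Neither had a partner in the other list.

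**Figure D3:**
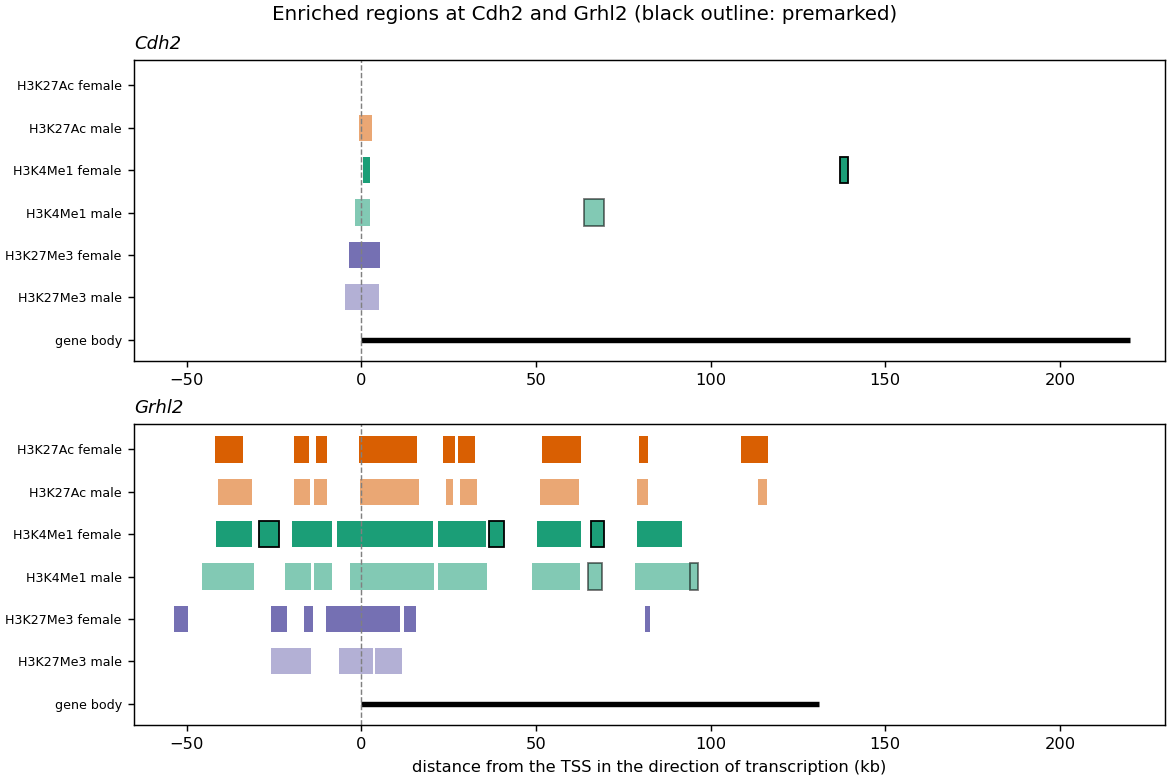
Regions of the female (dark) and male (light) lists at Cdh2 and Grhl2 by distance from the TSS in kb, drawn as for the members with short gene bodies. Cdh2 had 3 female and 4 male regions, with H3K27Ac in the male list only, and Grhl2 had 24 female and 21 male regions.

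Acetylated and Polycomb regions met more often around the members than in the lists as a whole. An overlap of any length counted, such as 0.199 kb at a female Grhl2 region. Regions nearer to the TSS of another gene were included, and the part of region width in these shares was not tested. Of the members' H3K27Ac regions, 20 of 32 in the female list and 23 of 34 in the male list overlapped an H3K27Me3 region, against 16.0% of all H3K27Ac regions in the female list and 13.7% in the male list. Of the H3K27Me3 regions, 21 of 29 female and 20 of 27 male ones overlapped H3K27Ac, against 24.4% of the female and 24.0% of the male list. Nearly all H3K27Ac regions of the members met H3K4Me1, 31 of 32 in the female list and 32 of 34 in the male list, against 74.3% of the female and 75.9% of the male list.

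The bases under H3K4Me1 were divided by the other marks of the same list. Those under H3K27Ac and H3K27Me3 together made up 23.1% of 428 kb at the members in the female list and 27.2% of 416 kb in the male list, against 3.62% and 3.04% of the bases of the whole lists. H3K27Ac with or without H3K27Me3 covered 54.5% at the members in the female list and 58.1% in the male list, against 40.1% and 39.5% of the whole lists. Bases with neither mark made up 29.5% at the members in the female list and 27.6% in the male list, against 46.8% and 49.6% of the whole lists. The doubly marked share ran highest at Otx2 and lowest at Cdh2 in the female list, with 0%, and at Pou3f1 in the male list, with 14.0%. At Foxd3 it was 18.4% in the female list and 34.1% in the male list, where the H3K27Me3 region was wider. The regions over the members' starts were wide, as given above, and the part of width in these shares was not tested.

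**Figure D4:**
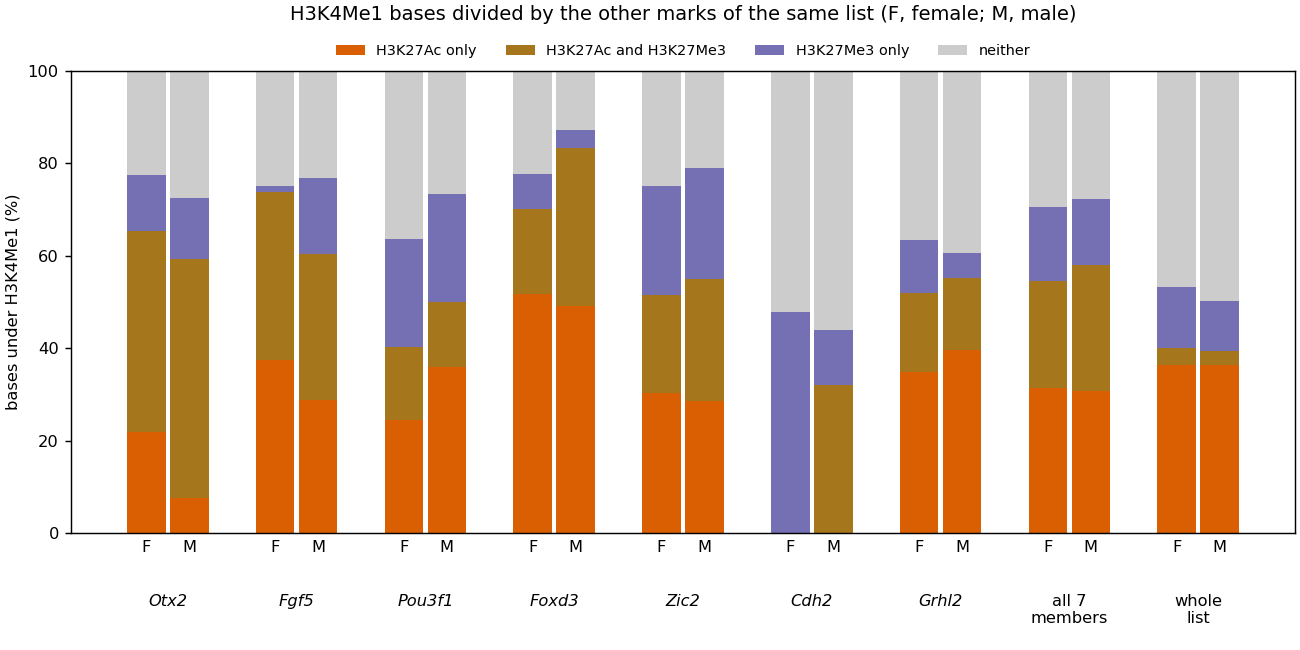
Percent of the bases under H3K4Me1 regions that lay under H3K27Ac only, under H3K27Ac and H3K27Me3, under H3K27Me3 only, or under neither, with the female list (F) left of the male list (M), for each member, for all 7 and for the whole list. The doubly marked share was 23.1% at the members in the female list and 27.2% in the male list, against 3.62% and 3.04% in the whole lists.

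Enhancers that carry H3K4Me1 before activation were taken as H3K4Me1 regions over 2 kb from every protein-coding TSS (the 5′ end of each gene model). They overlapped no H3K27Ac region of the same list and are here called premarked. No later stage was sampled, so activation of these regions was not tested. The members had 12 premarked regions among 26 distal H3K4Me1 regions in the female list and 8 among 20 in the male list. Over the whole lists, 62.2% of distal H3K4Me1 regions were premarked in the female list and 60.3% in the male list, so the members' shares of 46.2% in the female list and 40.0% in the male list lay below the background. At least 1 was found at 6 of 7 members in the female list, with Fgf5 the exception, and at 4 of 7 in the male list (Otx2, Pou3f1, Cdh2 and Grhl2), against 58.2% of protein-coding genes in the female list and 51.8% in the male list. The premarked regions of the members were 3.80 kb wide in the female list and 3.90 kb in the male list (medians), against 3.80 and 4.40 kb over all premarked regions of those lists. H3K27Me3 overlapped 3 of the 12 female and 2 of the 8 male ones, against 27.6% of all premarked regions in the female list and 22.7% in the male list.

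Premarked in both lists were stretches at Otx2, Pou3f1 and Grhl2. The Otx2 ones lay downstream of the gene, from 24.7 to 29.3 kb, from 35.7 to 39.5 kb and from 40.7 to 43.9 kb where the lists overlapped, and no H3K27Me3 region touched them. The farther 2 stretches were 1 region of 8.40 kb in the female list and 2 regions of 3.80 and 4.40 kb in the male list. The Pou3f1 stretch, from -20.1 to -16.3 kb, carried H3K27Me3 over 4.20 kb of 5.60 kb in the female list and over 3.60 kb of 3.80 kb in the male list. The Grhl2 stretch lay in an intron, from 65.8 to 68.8 kb, without H3K27Me3.

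The centres of 4 of these stretches are shown because they are the elements that kept H3K4Me1 without H3K27Ac in both sexes. Each is the central 300 bases of the overlap of the female and the male region in mm9, 5′ to 3′ on the strand of the gene. They are Otx2 at chr14:49260150-49260449 and chr14:49244850-49245149 (minus strand), Pou3f1 at chr4:124316550-124316849 and Grhl2 at chr15:37229950-37230249 (plus strand). Capitals mark the Zic motif CAGCAGG or its reverse complement.
Otx2 downstream stretch, nearer: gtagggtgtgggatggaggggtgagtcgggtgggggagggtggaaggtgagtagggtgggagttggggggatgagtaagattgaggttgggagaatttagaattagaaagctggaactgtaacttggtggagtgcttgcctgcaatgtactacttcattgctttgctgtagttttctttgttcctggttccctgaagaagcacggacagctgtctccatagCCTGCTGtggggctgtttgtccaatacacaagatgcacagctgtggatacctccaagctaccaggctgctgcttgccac
Otx2 downstream stretch, farther: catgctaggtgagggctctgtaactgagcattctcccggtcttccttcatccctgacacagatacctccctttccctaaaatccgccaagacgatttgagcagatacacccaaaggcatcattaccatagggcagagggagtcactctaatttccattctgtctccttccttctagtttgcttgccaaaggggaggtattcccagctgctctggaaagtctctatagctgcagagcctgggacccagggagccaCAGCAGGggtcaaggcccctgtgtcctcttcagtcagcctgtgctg
Pou3f1 upstream stretch: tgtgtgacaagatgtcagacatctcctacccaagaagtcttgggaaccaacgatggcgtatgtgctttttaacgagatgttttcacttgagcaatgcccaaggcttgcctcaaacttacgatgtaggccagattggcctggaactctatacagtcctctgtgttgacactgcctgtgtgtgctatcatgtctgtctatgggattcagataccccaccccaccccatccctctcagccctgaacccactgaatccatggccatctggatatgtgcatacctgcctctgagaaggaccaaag
Grhl2 intronic stretch: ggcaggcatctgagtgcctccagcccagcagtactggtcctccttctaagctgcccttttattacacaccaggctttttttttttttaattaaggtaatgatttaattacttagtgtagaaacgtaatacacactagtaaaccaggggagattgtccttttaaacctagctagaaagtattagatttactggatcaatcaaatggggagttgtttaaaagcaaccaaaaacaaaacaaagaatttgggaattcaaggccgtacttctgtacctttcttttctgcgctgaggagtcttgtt

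In the sequences above, both Otx2 centres held the Zic motif 1 time, as did 12.0% of the centres of all 8782 stretches premarked in both lists, and the third Otx2 centre, not shown, did not hold it. None of the other 5 motifs was found in the 5 centres of the members. The Otx2 centres held 2 or 3 CpG, the Pou3f1 centre 4 and the Grhl2 centre 3, unlike the CpG-rich gene starts of Pou3f1 and Zic2. A match of letters is a description of the sequence and not a bound site.

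The other premarked regions differed between the lists in kind. In 4 female and 2 male cases the other list had no H3K4Me1 region at the place. These were at Foxd3 (21.4 to 23.2 kb), Cdh2 (137 to 139 kb) and Grhl2 (-29.4 to -23.6 kb and 36.6 to 40.8 kb) in the female list, and at Cdh2 (63.8 to 69.4 kb) and Grhl2 (94.2 to 96.4 kb) in the male list. The male Grhl2 region of 2.20 kb directly adjoined an H3K4Me1 region of 15.8 kb that carried H3K27Ac. In the 4 other female cases the male list had H3K4Me1 that was not premarked, as 1 longer region that met H3K27Ac elsewhere along its length. These were Otx2 at -8.08 to -5.28 kb, Pou3f1 at -33.7 to -30.3 kb, Foxd3 at -31.4 to -27.4 kb and Zic2 at -34.4 to -31.4 kb. At Otx2, Pou3f1 and Foxd3 the longer male region also came within 2 kb of a protein-coding TSS, so it was not distal. The 1 male case in which the female list had H3K4Me1 that was not premarked was Pou3f1 at -53.7 to -49.7 kb. It met a female region over 3100002H09Rik that came within 2 kb of the start of that gene. No H3K27Ac region of the male list lay over any of the 12 female premarked regions, and none of the female list over any of the 8 male ones. If a region was set aside only when H3K27Ac covered at least 50% of it, 15 female and 11 male regions were premarked.

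Most regions of the members had a partner in the other list. Without a region of the same mark overlapping by at least 1 bp were 0 of 32 H3K27Ac regions in the female list and 1 of 34 in the male list, against 19.1% of the whole female and 10.4% of the whole male list. For H3K4Me1 these were 5 of 40 female regions, against 21.8%, and 2 of 33 male regions, against 13.1%. For H3K27Me3 they were 6 of 29 female regions, against 39.8%, and 5 of 27 male regions, against 23.6%. In all, 11 female and 8 male regions had no partner. This order turned with lists of equal length, where 5 female and 9 male regions had none, and with the widest 50% of each list, where 6 female and 7 male regions had none. The widest were an H3K4Me1 region of 5.80 kb at Grhl2 in the female list and one of 5.60 kb at Cdh2 in the male list. Zic2 had a partner for each of its regions in both lists. These shares rest on an overlap of at least 1 bp, and the part of region width in them was not tested. When 50% of both regions had to overlap, 36 female and 31 male regions of the members had no partner. Shares of the whole lists were not computed under that rule.

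Where 1 region of a list met exactly 1 of the other, the edges lay close. Over 28 H3K27Ac pairs of the members the median distance between matching edges was 0.600 kb, against 0.400 kb over 20384 pairs of the whole lists. It was 0.500 kb over 16 H3K4Me1 pairs, against 0.600 kb over all pairs, and 0.800 kb over 15 H3K27Me3 pairs, against 0.800 kb over all pairs. The female region was the wider one in 9 H3K27Ac pairs and the narrower one in 16, in 3 and 12 H3K4Me1 pairs, and in 5 and 10 H3K27Me3 pairs. Over all pairs of the lists the female region was wider in 44.7% for H3K27Ac, 41.3% for H3K4Me1 and 55.4% for H3K27Me3. In counts it was wider in 9105 and narrower in 9184 H3K27Ac pairs, and wider in 8772 and narrower in 11168 H3K4Me1 pairs. For H3K27Me3 it was wider in 4712 and narrower in 3384 pairs. The remaining pairs, of the members and of the whole lists, were of equal width. With 1 list for each sex, a difference in width between sexes and a difference in depth or threshold between lists cannot be told apart.

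The members were set beside other gene lists at the gene start. Among 20 other formative and primed genes, 10 had H3K27Ac and H3K27Me3 together in the female list and 10 in the male list. H3K27Ac alone or with other marks lay at 17 of them in the female list and 16 in the male list, and H3K27Me3 at 13 in each. Among 12 naive genes, which encode factors of the ES cell state, 11 had H3K27Ac in each list, 5 had H3K27Me3 in each and 4 had both marks in each. Esrrb was among the 5, with H3K27Me3 over only 67 bases within 2 kb of its TSS in the female list and 267 in the male list. Of 11 neural genes with an annotated start, all 11 had H3K27Me3 in each list and 1 had H3K27Ac, which was Olig2, a factor of oligodendrocyte and motor neuron precursors. By count, the members had H3K27Me3 at the start as often as the neural genes, and H3K27Ac at most starts as the naive genes did.

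The paralogs of the members differed from them in acetylation. Of 15 paralogs, H3K27Me3 lay at the start of 12 in the female list and 11 in the male list, and H3K27Ac at 5 in the female list (Foxd1, Grhl3, Cdh1, Cdh3 and Cdh4) and 2 in the male list (Grhl3 and Cdh1). Both marks together lay at 4 in the female list and 0 in the male list. Otx1, Pou3f2, Pou3f3, Zic1 and Zic4 had H3K27Me3 and no H3K27Ac in both lists, and Crx, the photoreceptor homologue of Otx2, and Pou3f4 had no mark in either. Cdh1, which encodes E-cadherin, had H3K27Ac and H3K4Me1 without H3K27Me3 in both lists. Zic5, the neighbour of Zic2, had H3K27Ac in both lists and H3K27Me3 at the start in the male list without a region there in the female list.

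**Figure D5:**
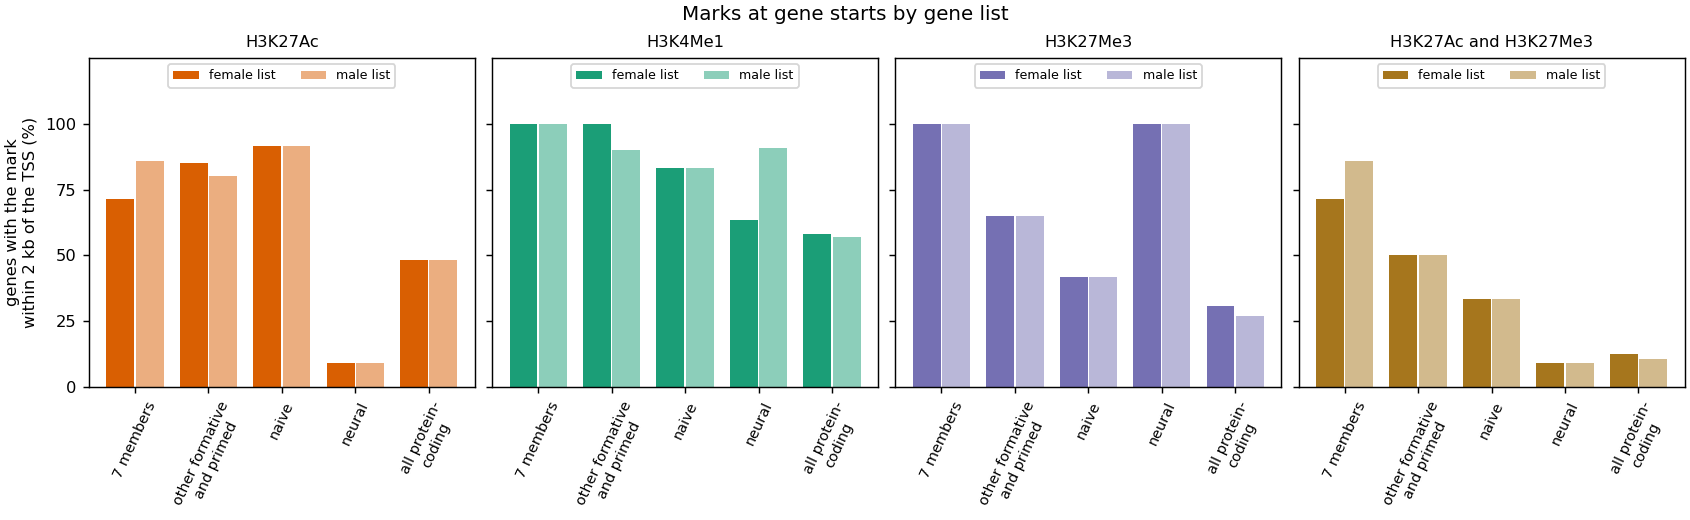
Percent of the genes of each list with a mark within 2 kb of the TSS in the female (dark, left) and male (light, right) lists, for the 7 members, 20 other formative and primed genes, 12 naive genes, 11 neural genes and all protein-coding genes. H3K27Ac and H3K27Me3 together lay at 71.4% of the members in the female list and 85.7% in the male list, against 12.5% and 10.7% of all protein-coding genes.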

How the data were processed

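ChIP-seq for H3K27Ac, H3K4Me1 and H3K27Me3 was done in 2 female and 2 male ES cell lines, with IgG and input libraries that have no list of their own. The authors aligned reads to mm9 with Bowtie2 v2.1.0 and used Bedtools, and Bowtie and deepTools are also named in the submitters' processing notes. The deposited values are region starts and ends in bp. Not given in the sources used here are the region caller, its threshold, the use of IgG and input, and how lines were combined. Starts were read as 0-based and are printed 1-based.

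The gene models were those of GENCODE M1 (assembly NCBIM37, identical to mm9), with 37273 genes (22367 protein-coding) on 21 chromosomes. Sox1 of the neural list was not used here, and Tfcp2l1 was matched by a synonym. A mark was at a gene start if a region came within 2 kb of the TSS, and regions of both sexes were paired if they overlapped by at least 1 bp. Every member was named, and other genes were named as paralogs, neighbours, or markers. Motif matches were counted by letters on both strands. Overlap counts equalled those of bedtools 2.31.1 in 6 of 6 comparisons, and the counting was tested on simulated data. Python 3.11.15 was used. The members and gene lists were chosen with earlier results of these data known. Alternatives were other windows and starts, the nearest gene, the widest 50% of each list, lists of equal length, merged regions, and other definitions of distal, acetylated and shared.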

Additional observations from a re-analysis of the deposited data

How the results depend on the processing

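Of 74 values recomputed under 13 alternative settings, 61 kept close to the reported count, within a factor of 1.5. With a window of 20 kb instead of 50 kb, the members held 58 female and 58 male regions, 5 female and 4 male premarked regions, and 7 female and 4 male regions without a partner. With the widest 50% of each list, they held 65 female regions, 6 female and 2 male premarked regions, and 6 female and 7 male regions without a partner. With lists of equal length, 5 female and 9 male regions had no partner, so that the order of the reported 11 female and 8 male ones turned under both settings. When 50% of both regions had to overlap, 36 female and 31 male regions had no partner, with no share of the whole lists computed for comparison. The counts of marks at gene starts kept within that factor under each setting run on them. The calls that changed there were those of Cdh2, which lost H3K27Ac in the male list and H3K4Me1 in both with the widest 50% and H3K4Me1 in the female list with lists of equal length, and H3K27Ac of Pou3f1 in the male list, gained within 5 kb.

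No paired analysis was possible because there is 1 list for each sex and mark, which carries no line number, and no line was left out in turn for the same reason. The depth of the libraries is unknown, so a region missing from a list is not shown to be absent from the cells.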
